A study of Mus musculus with 7 samples.

Results

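The Tal1 locus was taken as the Tal1 gene (ENSMUSG00000028717.12, plus strand, chr4:115056426-115071755 of mm10) with 60 kb of flanking sequence on either side, a window of 135 kb at chr4:114996426-115131755. Its members are the open chromatin regions (OCRs) of that window. They were found by collecting every peak of 7 bulk ATAC-seq libraries that overlapped the window and merging peaks of different libraries that shared at least 1 bp, which gave 30 of the 144931 merged OCRs of the genome. In ATAC-seq the Tn5 transposase cuts accessible DNA and inserts sequencing adapters, so that reads pile up where chromatin is open. The libraries were made from HPC7, a mouse hematopoietic progenitor cell line grown in Iscove's medium with calf serum and mouse stem cell factor, and the study describes them as separate culture batches. The labels give all 7 libraries (replicates 1, 2 and 4 to 8) the same condition, so the libraries are replicates of 1 group and comparisons were made between OCRs within a library. The peak names of the lists begin with VD in 3 libraries (replicates 1, 2 and 4) and with EtOH in 4 (replicates 5 to 8), which the labels do not explain. These prefixes were not used as groups, and the directions within each are given only where neighbouring OCRs are ordered by intensity.

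The lists held between 84593 and 132852 peaks per library. Replicate 1 was the deepest, with a background of 20.4 reads, and the others had between 4.44 and 7.45. The cell type named in the labels was checked at promoters, counted as open where a peak lay within 1 kb of a start site. All 8 hematopoietic progenitor markers (Ptprc, Kit, Cd34, Gata2, Lmo2, Runx1, Myb and Spi1) had a promoter peak in every library, as did 55.9% of the promoters of all 21911 protein-coding genes. The promoters of 6 genes of other tissues (Alb, Myod1, Neurod1, Cdx2, Nkx2-5 and Krt5) and of the lymphocyte gene Cd3e had none in any library.

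TAL1, also known as SCL, is a basic helix-loop-helix transcription factor that is needed for blood cells to form. It binds DNA at E-box sequences as a dimer with an E protein, and joins LMO2, LDB1 and a GATA factor in a complex that can sit on a GATA site next to an E-box. The gene is transcribed in progenitor, erythroid, megakaryocytic and mast cells, and its expression there is known to be driven by enhancers on both sides of the gene, among them a stem cell enhancer just downstream of the gene and an erythroid enhancer beyond the neighbouring gene Pdzk1ip1. Stil, the upstream neighbour, encodes a protein of centriole duplication. Pdzk1ip1, also called Map17, encodes a small membrane protein, and Cyp4x1 a cytochrome P450.

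GENCODE M21 places 4 Tal1 start sites in the window, at 115056426, 115057438, 115057811 and 115059508. All distances below are from the most upstream of them, that of Tal1-201, and the others lie 1012, 1385 and 3082 bp downstream. An OCR is called by the distance of its summit, the median over libraries, in whole kb. Downstream is positive. The sequences of the OCRs on which the results turn are printed here so that their motif letters can be read beside their intensities. Each is the plus strand of GRCm38 (mm10), 150 bases around the median summit, and capitals mark matches to a motif on either strand. The GATA motif was AGATAA or else the letters TGATAA. The E-box was searched as CAGCTG and also as the letters CAGATG or as their reverse complement, which reads CATCTG. The ETS motif was GGAAGT, that of RUNX was spelled TGTGGT, and CTCF was searched by its core consensus. The start site OCR contains all Tal1 start sites, the OCRs at -8, +19 and +39 kb are the strongest ones away from any start site, that at +45 kb has a CTCF match near its summit, and that at +67 kb holds a GATA match together with an E-box at lower intensity.
Start site OCR, chr4:115056651-115056800: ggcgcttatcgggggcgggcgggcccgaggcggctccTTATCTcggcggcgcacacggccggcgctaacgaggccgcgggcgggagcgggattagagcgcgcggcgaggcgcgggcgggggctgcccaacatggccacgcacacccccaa
OCR at -8 kb, chr4:115048350-115048499: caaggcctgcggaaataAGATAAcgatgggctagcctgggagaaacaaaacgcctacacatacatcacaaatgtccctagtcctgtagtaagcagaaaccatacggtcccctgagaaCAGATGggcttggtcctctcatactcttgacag
OCR at +19 kb, chr4:115075641-115075790: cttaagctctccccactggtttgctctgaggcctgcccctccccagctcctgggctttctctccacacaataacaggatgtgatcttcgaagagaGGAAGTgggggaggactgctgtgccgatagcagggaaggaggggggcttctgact
OCR at +39 kb, chr4:115095850-115095999: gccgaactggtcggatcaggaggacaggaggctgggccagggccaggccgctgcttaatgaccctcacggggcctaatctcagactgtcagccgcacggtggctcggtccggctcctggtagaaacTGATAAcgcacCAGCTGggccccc
OCR at +45 kb, chr4:115101798-115101947: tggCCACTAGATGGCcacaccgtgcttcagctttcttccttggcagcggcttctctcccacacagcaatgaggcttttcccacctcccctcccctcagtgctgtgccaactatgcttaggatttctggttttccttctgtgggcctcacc
OCR at +67 kb, chr4:115123606-115123755: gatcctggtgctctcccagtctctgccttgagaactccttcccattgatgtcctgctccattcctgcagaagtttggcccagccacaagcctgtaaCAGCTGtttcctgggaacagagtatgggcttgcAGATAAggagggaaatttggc
The 250 bases upstream of the Tal1-201 start, from RefSeq (GRCm38.p6), also lie inside the start site OCR, and the capitals there mark a GATA motif on the minus strand.
Upstream of Tal1-201, chr4:115056176-115056425: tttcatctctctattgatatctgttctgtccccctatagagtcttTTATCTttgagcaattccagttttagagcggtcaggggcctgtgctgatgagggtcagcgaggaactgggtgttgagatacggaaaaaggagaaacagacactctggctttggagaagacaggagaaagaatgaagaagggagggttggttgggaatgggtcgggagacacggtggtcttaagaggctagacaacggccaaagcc

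Of the 30 OCRs, 17 had a peak in all 7 libraries, and these lay at -59, -56, -18, -8, -4, 0, +7, +14, +15, +19, +23, +29, +33, +39, +45, +47 and +67 kb. They made up 56.7% of the OCRs of the window (95% Wilson interval 39.2 to 72.6, counting error only), beside 46.2% of all merged OCRs of the genome. The background share lay inside that interval, so the count alone does not set the window apart. By their summit, 11 shared OCRs were intergenic, 2 were intronic, 3 were in coding exons and 1 was in a UTR exon. Neighbouring shared OCRs were a median of 5.15 kb apart. The longest stretch between them, 38.3 kb, ran over the body of Stil between its promoter and the OCR at -18 kb. The position of the summit varied little, with an SD under 50 bp over the 7 libraries in 12 of the 17 shared OCRs.

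**Figure D1:**
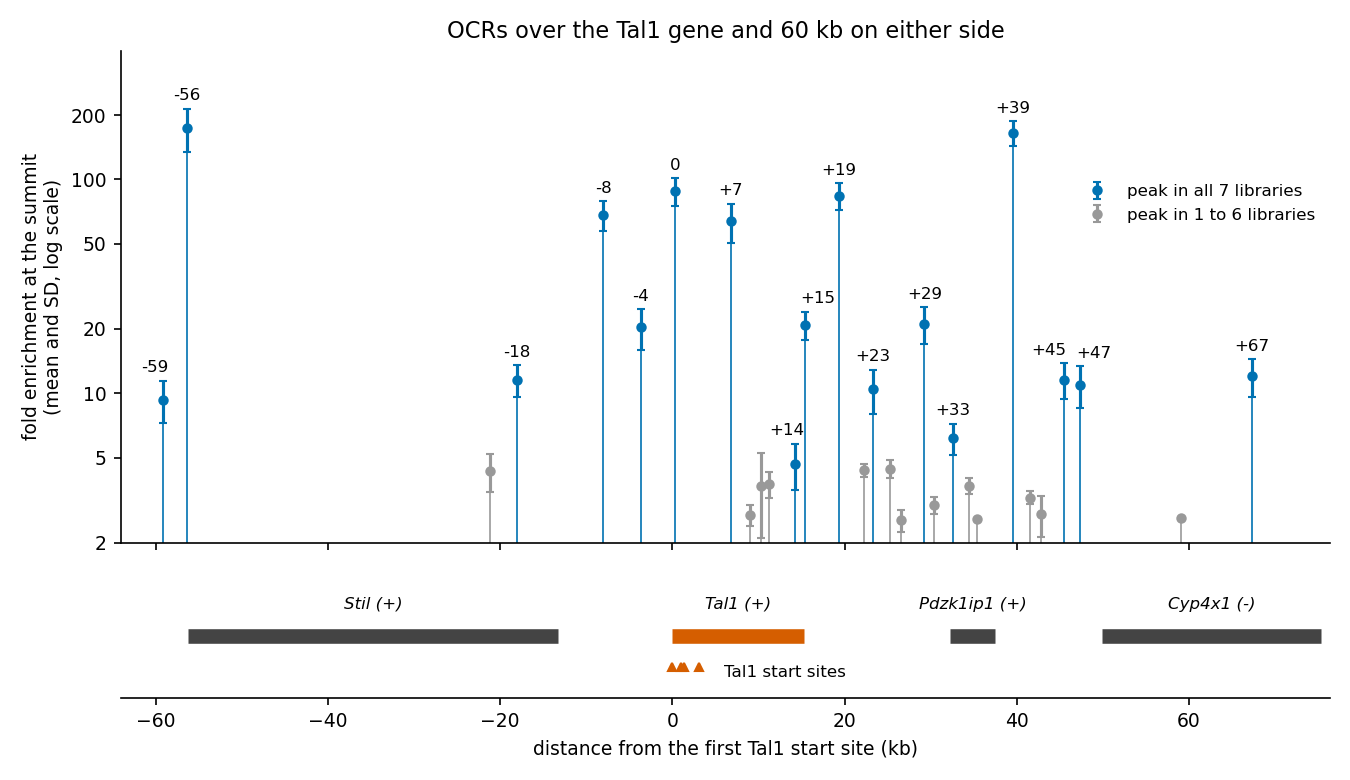
Map of the 30 OCRs of the Tal1 window. The horizontal axis is the distance of the summit from the most upstream Tal1 start site in kb, and the vertical axis is the fold enrichment at the summit on a log scale (mean and SD over the libraries with a peak). Blue marks the 17 OCRs with a peak in all 7 libraries and grey the 13 others. Bars below are the genes with their strand, cut at the window, and triangles are the 4 Tal1 start sites. The OCRs at -56 and +39 kb are the tallest, at a mean of 175 and 165.

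Peak intensity is given as the fold enrichment at the summit, which in these lists is the reads piled up there plus 1, divided by the background reads of the same library plus 1, and as a percentile, the place of the peak among all peaks of its own library. The OCR over the Tal1 start sites was the widest of the window. It ran from -0.648 to 4.69 kb, a width of 5341 bp, and held all 4 start sites. Its fold enrichment was 65.9 in the lowest library, 89.2 in the median and 105 in the highest (mean 88.3 ± 12.8 SD, n = 7), and its percentile lay between 93.5 and 95.8. Replicate 6 was the lowest and replicate 1 the highest, with 420 and 2241 reads at the summit. The tallest point lay 218 to 449 bp downstream of the Tal1-201 start, at 298 to 302 bp in replicates 4, 5, 6 and 8 and at 448 or 449 bp in replicates 1 and 7.

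The rest of this OCR reached over the start of Tal1-204. In replicates 2 and 6 the peak caller divided the OCR, and the downstream peak had its own summit at 3443 and 3184 bp, beyond the Tal1-204 start at 3082 bp. The fold enrichment there was 20.03 in replicate 2 and 11.3 in replicate 6, beside 82.7 and 65.9 at the upstream summit of the same libraries. The upstream summit was the higher in both libraries where the OCR was divided. Among the promoters of 21911 protein-coding genes the Tal1 promoter lay at percentile 75.6 ± 1.63 (SD, n = 7). This ranking includes promoters without a peak, which count as 0 and share a mean percentile of 20.7. Among promoters with a peak alone its percentile would be lower.

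The OCR at +39 kb was the strongest one away from any gene start. It spans 3542 bp downstream of the 3' end of Pdzk1ip1, in intergenic sequence at chr4:115094034-115097575, at the distance where the erythroid enhancer of Tal1 is known to lie. Its fold enrichment was 138 in the lowest library, 163 in the median and 199.98 in the highest (mean 165 ± 21.5 SD, n = 7), at percentiles of 98.1 to 99.2. Between 884 and 3437 reads stood at the summit. Every library was above the highest value of the start site OCR, 105, so that the values did not overlap. Within a library the +39 kb OCR was 1.88 times as high as the start site OCR (log2 ratio 0.91 ± 0.19 SD, higher in 7 of 7 libraries, two-sided exact sign-flip permutation, p = 0.0156, which is the smallest for 7 libraries, adjusted p = 0.0167 over 16 comparisons). Only peaks more than 3 kb from any annotated transcript start were then ranked against each other. In that ranking the +39 kb OCR stood at a median percentile of 99.8, with between 56 and 165 distal peaks higher in a library out of 51315 to 87313.

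The OCR at +19 kb, at chr4:115074283-115076790, lies downstream of the 3' end of Tal1 at the distance of the stem cell enhancer. It was 2508 bp wide. Its fold enrichment was 59.4 in the lowest library, 86.4 in the median and 100.1 in the highest (mean 83.9 ± 12.4 SD, n = 7), at percentiles of 92.6 to 95.6. Replicate 6 was again the lowest, and replicate 8 the highest. These values overlapped those of the start site OCR almost fully. The log2 ratio to it was -0.07 ± 0.12 (SD), with libraries between -0.28 and 0.10, and +19 kb was the lower in 5 of 7 (exact sign-flip test, p = 0.156). Among distal peaks its median percentile was 98.6. A summit held between 379 and 1846 reads.

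Upstream of the gene, 2 OCRs lie between Stil and Tal1. That at -8 kb, at chr4:115047297-115050322, had a fold enrichment of 49.6 in the lowest library, 69.3 in the median and 80.4 in the highest (mean 68.4 ± 10.96 SD, n = 7), at percentiles of 90.7 to 93.8. Its main summit was the most fixed of the locus, with an SD of 4.49 bp. In 6 of 7 libraries, all but replicate 1, a smaller peak was called beside it with a summit at -6407 to -6500 bp and a fold enrichment of 6.57 to 13.0. In replicate 1 a single peak of 3000 bp covered that position too. The -8 kb OCR was at 77.3% of the start site OCR (log2 ratio -0.37 ± 0.12 SD, lower in 7 of 7 libraries, exact permutation, adjusted p = 0.0167). Its median percentile among distal peaks was 97.9.

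The OCR at -4 kb, at chr4:115052237-115053223, was weaker. Its fold enrichment was 14.7 in the lowest library, 21.4 in the median and 27.4 in the highest (mean 20.3 ± 4.46 SD, n = 7), at percentiles of 73.1 to 83.2. Its highest library was below the lowest one of the -8 kb OCR, and its median percentile among distal peaks was 86.0. It stood at 22.8% of the start site OCR (log2 ratio -2.14 ± 0.20 SD, lower in 7 of 7, exact permutation, adjusted p = 0.0167).

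Inside and at the end of the gene, 3 further OCRs were shared. The OCR at +7 kb has its summit in a Tal1 coding exon, 3716 bp downstream of the Tal1-204 start. It reached a fold enrichment of 42.2 in the lowest library, 67.6 in the median and 80.5 in the highest (mean 63.7 ± 13.4 SD, n = 7), or 71.3% of the start site OCR (log2 ratio -0.49 ± 0.15 SD, lower in 7 of 7, exact permutation, adjusted p = 0.0167). The OCR at +14 kb, in a Tal1 UTR exon, was the weakest shared OCR of the window, from 3.13 to 5.92, and its percentile ran from 7.89 to 47.3. Its lowest library, replicate 6, rested on 19 reads, which puts the fold enrichment of 3.13 between 1.95 and 4.80 (95% Poisson interval, counting error only). The OCR at +15 kb begins before the 3' end of Tal1 and has its summit just beyond it. It was between 17.1 and 26.2 with a median of 20.03, well above its neighbour at +14 kb in every library.

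Between Tal1 and Cyp4x1 the weaker shared OCRs surround the +19 and +39 kb ones. The OCR at +29 kb, upstream of Pdzk1ip1, had a fold enrichment of 14.9 in the lowest library, 19.5 in the median and 27.1 in the highest, or 23.7% of the start site OCR. The OCR at +33 kb contains a Pdzk1ip1 start site, as does the weak OCR at +34 kb, which had a peak in 6 libraries. The +33 kb OCR was only 4.85 to 7.14, at percentiles of 35.8 to 61.0, so the highest library at +33 kb was below the lowest of both the Tal1 start site OCR and the +39 kb OCR at the other end of the gene. The OCRs at +23, +45 and +47 kb had median values of 10.1, 11.5 and 10.5. The last shared OCR, at +67 kb, lies in an intron of Cyp4x1, 19.97 kb from its neighbour, with a median of 12.4. The Cyp4x1 promoter, just outside the window, had a peak within 1 kb in 3 of 7 libraries, with a highest value of 4.95.

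On the far upstream side the OCR at -56 kb is the Stil promoter. Its fold enrichment was 121 in the lowest library, 184 in the median and 241 in the highest (mean 175 ± 39.8 SD, n = 7), at percentiles of 98.6 to 99.3, and it contains the Stil start site. It was 1.95 times as high as the Tal1 start site OCR (log2 ratio 0.96 ± 0.18 SD, higher in 7 of 7, exact permutation, adjusted p = 0.0167). The OCRs at -59 and -18 kb were weak, with medians of 8.87 and 11.3. That at -18 kb has its summit in a coding exon of Stil. That at -59 kb moved most between libraries, with a summit SD of 300.2 bp, and replicates 7 and 8 had 2 peaks there, with summits at -59132 and -58544 bp in replicate 7 and at -59154 and -58528 bp in replicate 8.

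**Figure D2:**
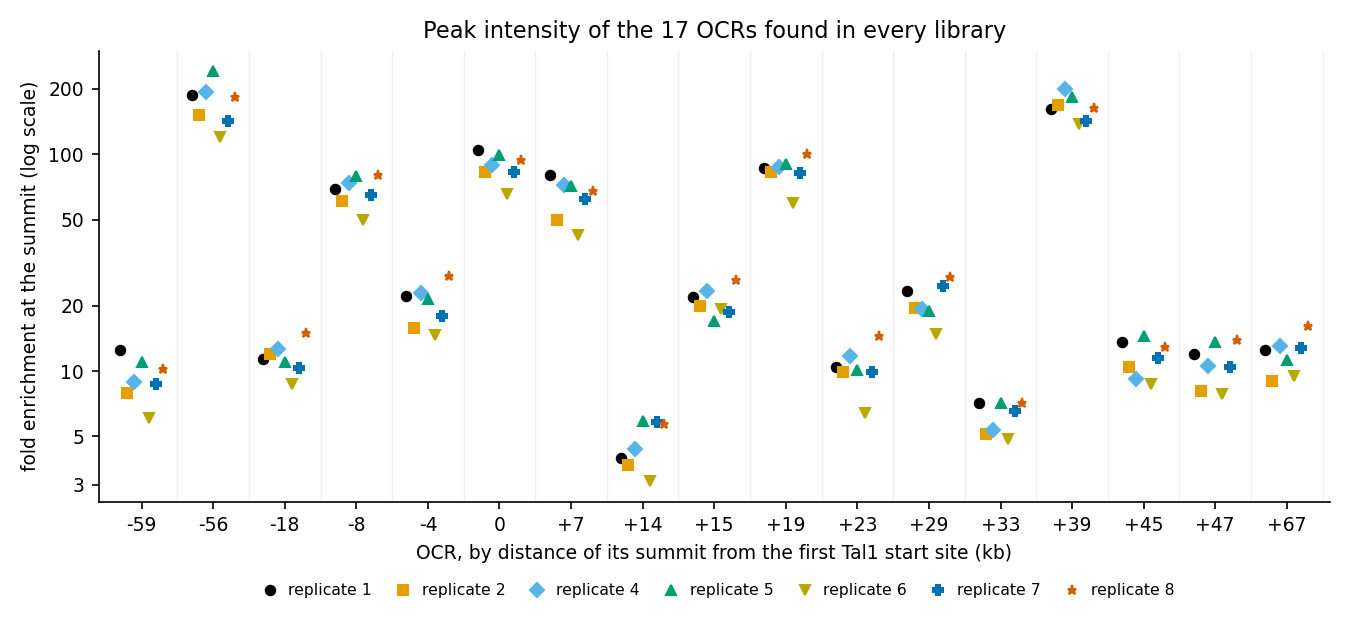
Peak intensity of the 17 shared OCRs in each library. The horizontal axis gives the OCR by its distance from the most upstream Tal1 start site in kb, the vertical axis the fold enrichment on a log scale, and each symbol is 1 library. Replicate 6 is the lowest in 15 of the 17 OCRs and replicate 8 the highest in 10, and no library of the 6 strongest OCRs is under 42.2, while no library of the others is above 27.4.

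The libraries differed in level, and most OCRs of the locus moved together. Replicate 6 gave the lowest value in 15 of 17 shared OCRs, the exceptions being those at +15 and +67 kb, and replicate 8 the highest in 10. Which library is the highest can depend on the 1 that is added to both terms of the fold enrichment, and at the start site OCR it would be replicate 5 without it. Ratios within a library share the same divisor, and 16 OCRs were compared with the start site OCR in this way. Higher were 2 (-56 and +39 kb), 13 were lower and 1, at +19 kb, did not pass the test. Of the lower ones, those at -8 and +7 kb stood at 77.3% and 71.3% of it and the others between 5.18% and 23.7% of it.

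**Figure D3:**
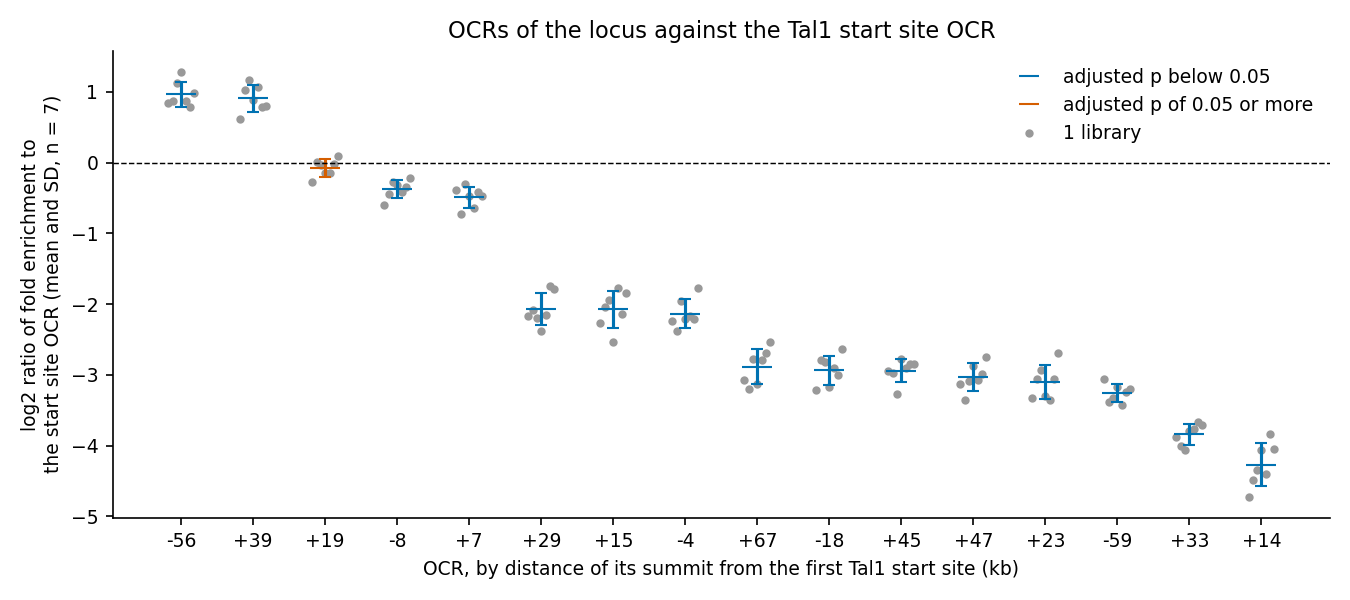
Log2 ratio of the fold enrichment of each shared OCR to that of the start site OCR in the same library. Grey points are the 7 libraries, bars are the mean and SD, and the dashed line is equality. Blue marks an adjusted p below 0.05 and orange one above it. The OCRs at -56 and +39 kb lie above the line in all libraries, that at +19 kb straddles it, and 13 lie below it in all libraries.

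The shared OCRs were also ordered by their mean log2 fold enrichment, and each was tested against the next in the order. The same values set the pairs, and the direction of each, so the p-values here only mark which steps in the order exceed the spread over libraries. Of 16 neighbouring pairs 6 differed (exact sign-flip test, adjusted p = 0.0417 in each, the higher OCR leading in 7 of 7 libraries), and these steps are called breaks below. The Stil promoter and +39 kb stood at the top with no break between them (log2 ratio 0.06 ± 0.22 SD, Stil higher in 4 of 7, adjusted p = 0.615 in the exact test). The +39 kb OCR led the start site OCR, and no break fell between that and +19 kb. The +19 kb OCR exceeded that at -8 kb by 1.23 times (log2 ratio 0.30 ± 0.08 SD), and no break fell between -8 and +7 kb. The widest break followed, since +7 kb exceeded +29 kb by 3.00 times. The OCRs at +29, +15 and -4 kb came next without a break between them, and that at -4 kb exceeded that at +67 kb by 1.68 times. From +67 down through -18, +45, +47 and +23 to -59 kb no neighbours differed, and the last breaks set off +33 kb, exceeded 1.49 times by -59 kb, and +14 kb, exceeded 1.35 times by +33 kb. Pairs that missed the threshold are not shown to be equal. Without any 1 library none of the 6 breaks passes, with a smallest adjusted p of 0.0714 to 0.0833 in the exact test of 6 libraries, though the higher OCR still led in every remaining library. Each of the 6 breaks had the same direction within the libraries of either name prefix. Over all 16 pairs the direction was kept in 15 with the prefix EtOH and in 13 with VD.

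The strong OCRs of the locus are also given relative to each other, as a description with no test, since the pairs were chosen after their values were seen. The +39 kb OCR was 1.98 times as high as that at +19 kb (log2 ratio 0.98 ± 0.19 SD), 2.43 times as high as that at -8 kb and 2.63 times as high as that at +7 kb. The +19 kb OCR was 1.33 times as high as that at +7 kb (log2 ratio 0.41 ± 0.21 SD). Each ratio was above 1 in 7 of 7 libraries.

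In the window 6 OCRs (-56, -8, 0, +7, +19 and +39 kb) were in the top 25% of fold enrichment in every library. They are 20% of the 30, beside 13.8% of all merged OCRs. Of the 6, those at -8, +7, +19 and +39 kb hold no start site of a gene.

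The other 13 OCRs of the window were found in 1 to 6 libraries and were all weak. Their fold enrichment ran from 2.29 to 5.53 over all libraries with a peak. The shared OCRs ran from 3.13 to 241, and of these only the OCRs at +14 and +33 kb had a library inside the range of the others. Of these, 4 were found in 6 libraries (at -21, +11, +25 and +34 kb), and 2 in replicate 1 alone. Replicate 1, the deepest library, had a peak in all 30 OCRs, and the other libraries in 20 to 24. Closed sites and sites below the detection of a library cannot be told apart in the peak lists. No OCR of the window with a mean fold enrichment above 4.43 was missing from any library.

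Peaks were denser in the Tal1 window than elsewhere. Each library had between 23 and 30 peaks there, or 19.6 ± 1.75 (SD, n = 7) per 100 kb, beside 3.89 ± 0.6246 in the rest of the genome, a ratio of 5.09 (log2 ratio 2.35 ± 0.15 SD, higher in 7 of 7 libraries, p = 0.0156 in the exact sign-flip test). The rest of the genome includes long stretches without genes. The test covers only the spread over libraries, so it cannot tell whether the window is denser than other gene windows. Against the windows of all 21911 protein-coding genes built in the same way, the Tal1 window held 12.6 shared OCRs per 100 kb where the median gene had 4.96, and stood at percentile 91.2.

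A window of the gene body plus 60 kb on either side was also drawn around 3 other transcription factor genes of the hematopoietic progenitor. It was 133 kb long for Gata2, 144 kb for Lmo2 and 345 kb for Runx1, beside 135 kb for Tal1. The windows were not matched for length or for neighbouring genes. The Gata2 window had 13.5 ± 4.16 peaks per 100 kb and the Runx1 window 14.2 ± 2.72. The Tal1 window was denser than either in 7 of 7 libraries, by a log2 ratio of 0.59 ± 0.34 over Gata2 and 0.48 ± 0.22 over Runx1 (exact permutation, adjusted p = 0.0234 over 3 windows). It was not shown to differ in density from the Lmo2 window, with 19.6 ± 2.39 (log2 ratio 0.01 ± 0.13 SD, higher in 4 of 7, adjusted p = 0.844 in the same exact test). In the Tal1 window 6 of 17 shared OCRs had a mean percentile over 90, among them the promoter of Stil. It was 3 of 32 in the Runx1 window, 2 of 17 in the Lmo2 window and 0 of 10 in the Gata2 window. The share of all shared OCRs of the genome over that percentile was not computed, so these counts have no background beside them. The highest mean fold enrichment of the Tal1 window was 175, at the promoter of Stil, and 165 at +39 kb. The highest was 163 in the Runx1, 104 in the Lmo2 and 50.3 in the Gata2 window.

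**Figure D4:**
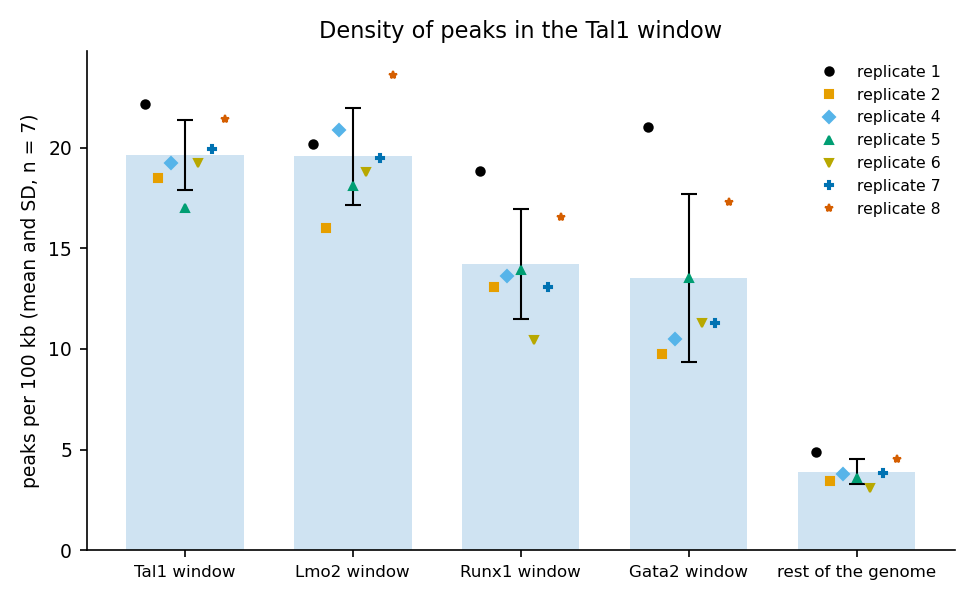
Peaks per 100 kb in the Tal1 window, in the windows of Lmo2, Runx1 and Gata2 and in the rest of the genome. Bars are the mean, error bars the SD, and symbols the 7 libraries. The Tal1 and Lmo2 windows both average 19.6, the Runx1 window 14.2, the Gata2 window 13.5 and the rest of the genome 3.89.

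The promoters of 12 genes whose products work with TAL1 or beside it were set against the Tal1 promoter within each library. Among them Tcf3 and Tcf12 encode E proteins, Erg and Fli1 ETS factors, Cbfa2t3 a corepressor and Gfi1b a repressor of blood lineages. All 12 had a peak in 7 of 7 libraries, beside 55.9% of all protein-coding promoters. Tal1 was higher than Gata1, Gata2, Tcf12, Erg, Fli1 and Gfi1b and lower than Lyl1, Lmo2, Tcf3 and Cbfa2t3 in every library (exact permutation, adjusted p = 0.0187 in each). The largest difference upward was over Gata1, which encodes the erythroid GATA factor, with a mean fold enrichment of 17.1 ± 4.17 (SD, n = 7). The largest downward was from Lyl1, the closest relative of Tal1, at 266 ± 56.01. Ldb1, which encodes the factor that joins the complexes of distant sites, did not pass the test (92.0 ± 19.6, adjusted p = 0.460 in the exact test). Runx1 varied from 36.0 to 209 between libraries and could not be placed.

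The letters of the motifs were read in a window of 301 bases around each summit. A GATA motif was found in 5 of the 17 shared OCRs (29.4%), those at -18, -8, 0, +39 and +67 kb, and in 29.4% of all shared OCRs of the genome. An E-box was in 7 (41.2%, genome 39.4%), the ETS motif in 4 (23.5%, genome 34.3%) and the RUNX motif in 2 (11.8%, genome 33.2%). The shares depend on the width that is read. Over the whole of each OCR the GATA motif was in 7 of the 17, beside 44.9% of all merged OCRs, and the E-box in 16, beside 57.7%. The ETS motif was then in 13 and the RUNX motif in 12, beside 44.7% and 48.5%. The widths of the OCRs were not matched in these shares, which are of all merged OCRs and not of the shared ones used for the 301 bases.

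The arrangement of CTG followed after 7 or 8 bases by a GATA motif, which describes the composite site of the TAL1 complex, was found in 2 of the 17, beside 3.80% of all shared OCRs. It overlaps the GATA motif by construction. The 2 were the OCRs at -8 kb, with CTGCGGAAATAAGATAA centred 61 bases before the summit, and at +39 kb, with CTGGTAGAAACTGATAA centred 48 bases after it. Both belong to the strongest OCRs away from a start site. The +39 kb sequence above also holds an E-box, CAGCTG, centred 64 bases after the summit, downstream of the GATA motif. The +19 kb OCR had the ETS motif centred 22 bases after its summit. Its window had no match to the E-box letters or to AGATAA or TGATAA, the only GATA spellings searched. The shorter letters GATA do occur in its printed sequence, within CGATAG, so a GATA site of another spelling is not excluded. In the 301 bases around the summits a CTCF match, CCACTAGATGGC, was found only in the OCR at +45 kb, centred 67 bases before the summit. This is 5.88% of the 17 shared OCRs, beside 6.42% of all shared OCRs of the genome. The GATA match of the start site OCR was on the minus strand.

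The 6 strongest OCRs differed in base composition. Around the summit the G and C content was 68.8% in the start site OCR, 70.8% at +7 kb, 68.4% at +39 kb, 63.8% at the Stil promoter, 59.8% at +19 kb and 49.5% at -8 kb, where the median of all merged OCRs was 48.8%. The CpG ratio, observed over expected, was 1.12 in the start site OCR, 0.956 at +7 kb and 0.915 at the Stil promoter, above the 95th percentile of all merged OCRs, 0.774. It was 0.539 at +39 kb and 0.451 at -8 kb. At +19 kb it was 0.0771, below the median of 0.196, so that this OCR and the Tal1 promoter, whose intensities overlapped, lay far apart in CpG ratio.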

How the data were processed

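Bulk ATAC-seq of HPC7 was deposited as 1 peak list per library. According to the study's methods, Cutadapt was used by the authors for trimming, BWA-mem for alignment (mm10 genome) and MACS2 for peak calling. Versions and options are not given in the sources used here. For each peak the deposited lists hold a fold enrichment (a ratio to the background), a −log10 p-value and a −log10 q-value, a score that is 10 times the −log10 q-value, and the summit. The deposited values are relative to the background of their own library, and a normalization between libraries by the authors is not given in the sources used here.

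Fold enrichments were whole multiples of 1 step per library (100% of values within 0.01 step), and the step gave the background and the reads at each summit, since the fold enrichment is (reads + 1) / (background + 1). The reads are pile-ups at 1 base, and the number of reads sequenced is not in the lists. Peaks were merged from 1 bp of overlap, and the highest peak of an OCR was its value in a library. Genes and 141767 transcript starts came from GENCODE M21, and sequences from the RefSeq copy of GRCm38, the same build as mm10. Values were compared with a two-sided exact permutation of the signs of the 7 library values (128 patterns, smallest p = 0.0156), and Benjamini-Hochberg adjustment was made within each family of comparisons. The permutation functions were tested on simulated data.

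The members and lists were chosen with earlier results of these data known. A marker gene of the fixed lists is not reported here. OCRs named were those found in all 7 libraries or within 1 kb of a Tal1 start site, and others are named only by their distance where counts are small. The direct ratios of strong OCRs, the tests against partner promoters, the ranking among distal peaks, the base composition and the rank among gene windows were added after values were seen. The alternatives tried were a minimum −log10 q of 5, equal list lengths, 50% reciprocal overlap, flanks of other lengths, rank or net reads as intensity, other promoter and motif windows, and each library left out in turn. Scripts ran on Python 3.11.15 with scipy 1.17.1, pandas 2.3.3, numpy 2.4.6 and matplotlib 3.10.9.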

Additional observations from a re-analysis of the deposited data

How the results depend on the processing

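Leaving out a library took the count of neighbouring pairs that differed from 6 to 0 for each library left out (range 0 to 0). This follows from the test, since 6 libraries allow no p below 0.0312 and the smallest adjusted p was then 0.0714 to 0.0833. The 6 pairs kept their direction in every remaining library, and 14 to 16 of the 16 pairs kept the direction of their mean. With ranks in place of fold enrichment 6 pairs differed. The counts against the start site OCR stayed at 2 higher and 13 lower with net reads, with the mean over the peaks of an OCR and without any 1 library. The window held 25 to 37 OCRs under the alternatives, 13 to 21 of them shared, and 14 peaks of replicate 1 were shared at 50% reciprocal overlap. The log2 density ratio stayed between 2.30 and 2.37. Read over whole OCRs in place of 301 bases, the E-box was in 16 of 17 shared OCRs (57.7% of all merged OCRs), the ETS motif in 13 (44.7%), the RUNX motif in 12 (48.5%) and the CTCF consensus in 2 (4.94%). The percentages are of all merged OCRs, not of shared ones, and widths were not matched. No pairing of samples between groups was possible because the labels give 1 group, with no other group to pair with it by replicate number. The tests between OCRs are themselves paired within each library. Background reads of 4.44 to 20.4 limit the detection of weak OCRs, and low values are precise only to the Poisson error of 16 reads or more at a summit.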
